A study of Mus musculus with 9 samples.

Results

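The genes described here encode 7 cation channels, Piezo1, Piezo2, Trpc1, Trpc4, Trpc5, Trpc6 and Trpc7, of the 21457 genes in the deposited matrix of cholinergic nuclei. They were chosen by name, as the Piezo family and 5 of the canonical transient receptor potential (TRPC) channels, and were picked on measured values: Piezo2 had already been seen to mark the interneuron clusters I1, I7 and I8, and Trpc7 to mark interneurons. Their levels over clusters are therefore a description with no test. Tests are given only for spinal region, which the choice of genes did not use.

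The study sequenced single nuclei from adult mouse spinal cord, sorted for the GFP that Chat-IRES-Cre switches on at the nuclear envelope through the Sun1-sfGFP reporter. All mice carried 1 Chat-iCre and 1 SUN-SfGFP allele with their wild-type partners, were 8 weeks old and received no treatment, so no group lacks either transgene. The reporter marks every cell that has ever expressed the Cre, and nuclei hold unspliced and newly made RNA more than the cytoplasmic pool. There were 9 libraries: cervical, thoracic and lumbar/sacral tissue from each of 3 pools of 4 mice (12 mice), where replicate 1 pooled 2 male and 2 female mice, replicate 2 pooled 4 males and replicate 3 pooled 4 females. Sex and pool therefore cannot be told apart. Of 34231 annotated nuclei, the authors placed 16042 in 21 cholinergic clusters, 3 of skeletal motor neurons (S1 to S3), 10 of visceral motor neurons (V1 to V10) and 8 of interneurons (I1 to I8), with 747 to 2825 nuclei a library and median totals of 4712 to 16127 a nucleus. Between libraries 33 barcode sequences occurred in 2 libraries each.

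Before the results, the libraries need 2 remarks. The library labelled Cervical 2 had 9.68 CPM of Hoxa9, a thoracic and caudal patterning gene, against 0.412 and 0.213 in the other cervical libraries, whereas the library labelled Thoracic 2 had 0.507 against 9.35 and 9.04 in the other thoracic libraries. Both go against their labels. Hoxd11, a lumbar and sacral gene, was at 0 in these 2 and the other 4 rostral libraries. It was at 27.3, 31.0 and 23.0 CPM in the lumbar/sacral ones. An exchange of these 2 labels would therefore move no library between lumbar/sacral and rostral. The limma fits below gave cervical and thoracic libraries separate means, as labelled, so their SEs and p-values do depend on the labels. So do the fold changes in clusters where 1 of these 2 libraries had too few nuclei. CPM here means the corrected counts of a gene, summed over the nuclei of 1 library and 1 cluster or class, after scaling the sum over all genes to 1000000. Second, after centring on region, the first principal component held 69.06% of the variance over 10107 genes and parted the libraries into a set of 4 (Cervical 1, Cervical 3, Thoracic 1 and Lumbar/Sacral 1, set A) and a set of 5 (set B), a division that no label names.

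Piezo channels open when the membrane is stretched and let calcium and sodium in. Piezo2 is best known as the touch and proprioception channel of sensory neurons, and Piezo1 as the flow sensor of blood vessels. TRPC channels open downstream of receptors that act through the G protein Gq and phospholipase C: Trpc6 and Trpc7 are close relatives opened by diacylglycerol, Trpc4 and Trpc5 form a second close pair, and Trpc1 joins other members in mixed channels. They depolarize neurons slowly and carry calcium.

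On the GRCm38 mouse genome with GENCODE vM21, Trpc1 lies at chr9:95705082-95750375 on the minus strand, Trpc4 at chr3:54156035-54318471 on the plus strand, Trpc6 at chr9:8544142-8680741 on the plus strand, Trpc7 at chr13:56773113-56895993 on the minus strand and Piezo1 at chr8:122481698-122551329 on the minus strand. Trpc5 lies at chrX:144381671-144688180 on the minus strand, with its start 727 bases from that of Rtl4 (chrX:144688907-145122411), a retrotransposon-derived gene that runs away from it on the plus strand. The antisense gene Trpc5os (chrX:144456581-144477066) lies within Trpc5.

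Promoter windows of 250 bases before and 50 after the start were given by RefSeq (GRCm38.p6) for 6 of the 7 genes. The windows of Trpc4 and Trpc5 are shown because these close relatives had very different patterns over the clusters. The Trpc5 window also lies mostly within the stretch between the starts of Trpc5 and Rtl4. Capitals mark matches, on either strand, to the TATA box (TATAAA), the CCAAT box (CCAAT), the GC box (GGGCGG), an E-box (CACGTG) and the cyclic AMP response element (TGACGTCA). Trpc4 is at chr3:54155807-54156106 on the plus strand, and Trpc5 at chrX:144688131-144688430 on the minus strand, each written 5′ to 3′ along the gene.
Trpc4: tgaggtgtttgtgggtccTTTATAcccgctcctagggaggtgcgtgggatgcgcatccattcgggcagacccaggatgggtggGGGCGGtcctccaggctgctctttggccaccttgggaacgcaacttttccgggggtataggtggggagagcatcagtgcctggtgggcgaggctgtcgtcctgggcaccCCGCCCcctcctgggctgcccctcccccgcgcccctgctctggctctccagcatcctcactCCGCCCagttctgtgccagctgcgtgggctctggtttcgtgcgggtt
Trpc5: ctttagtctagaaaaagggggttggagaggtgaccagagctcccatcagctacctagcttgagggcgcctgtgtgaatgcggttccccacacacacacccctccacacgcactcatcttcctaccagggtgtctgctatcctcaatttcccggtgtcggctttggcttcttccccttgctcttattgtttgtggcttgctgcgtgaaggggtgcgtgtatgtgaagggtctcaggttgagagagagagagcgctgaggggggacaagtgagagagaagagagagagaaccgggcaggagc
The Trpc4 window had 4 matches, 1 to TATAAA and 3 to GGGCGG in 1 or the other orientation, at 66.0% GC, and the Trpc5 window had 0 matches at 55.7% GC. Of all 32851 promoter windows, 13.6% held TATAAA, 37.4% CCAAT, 35.7% GGGCGG, 7.15% CACGTG and 1.79% TGACGTCA, and the median GC was 52.7%. A match is a stretch of letters, and neither its presence nor its absence says which factors act there.

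Over the 21 clusters the 7 genes fell into patterns of very different breadth. Trpc1 reached 10 CPM in all 21 clusters, Trpc5 in 20, Trpc4 in 18, Trpc6 in 17, Piezo2 in 15, Trpc7 in 6 and Piezo1 in 1. When each gene's clusters were put in order of their mean, few of the 20 steps between neighbours exceeded the spread, meaning that the mean difference within libraries was larger than its SD over libraries: 3 for Piezo2 and Trpc7, 2 for Piezo1, Trpc4 and Trpc5, 1 for Trpc1 and 0 for Trpc6. Not every step could be judged: for Trpc6, V10 and V8 shared 1 library, and for Trpc7, V8 and V9 shared 0. Levels are compared here within a gene only, because tags from the 3′ end give no measure that holds between genes.

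**Figure D1:**
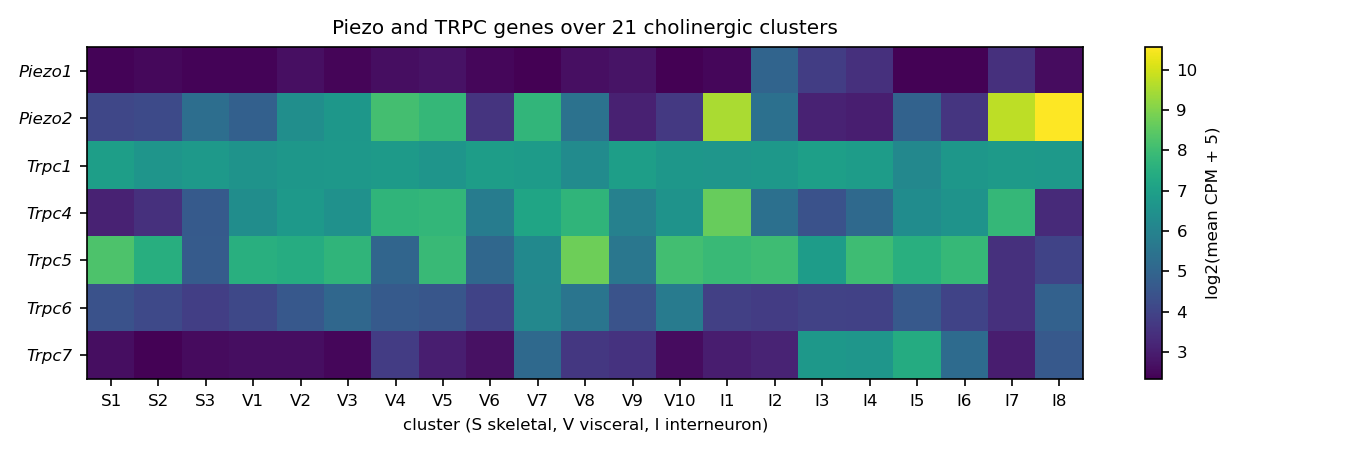
Mean level of each gene (rows) in the 21 clusters (columns), as log2 of mean CPM over libraries plus 5 (colour); S marks skeletal and V visceral motor neurons, and I marks interneurons. Piezo2 is brightest in I8 (1515 CPM), Trpc4 in I1 (400 CPM), Trpc5 in V8 (430 CPM) and Trpc7 in I5 (163 CPM), while Trpc1 stays between 66.6 and 120 CPM.

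Piezo2 was highest in 3 interneuron clusters. It stood at 1515 ± 178 CPM in I8 (SD, n = 8 libraries), 861 ± 179 in I7 (n = 6) and 735 ± 119 in I1 (n = 9), and each of these steps, like that from I1 to the next cluster, exceeded the spread. The 8 libraries with at least 10 I8 nuclei ran from 1340 to 1820 CPM, above every library of every other cluster. In I7 the values were 902 CPM in Cervical 1, 676 in Thoracic 1, 612 in the library labelled Thoracic 2, and 1014, 910 and 1051 in the lumbar/sacral libraries. In I1 the 9 libraries ran from 582 to 898 CPM with a median of 803, so the I1 and I7 ranges overlapped.

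The share of nuclei with any Piezo2 was 100% in I8, 98.2% in I7 and 88.6% in I1, and 99.7%, 94.8% and 83.2% after each nucleus was thinned to a total of 4600, which left out 1384 nuclei (8.63%; 44.1% of those of Lumbar/Sacral 1). In I4 and I3, the interneuron clusters lowest for Piezo2, the shares were 1.28% and 1.29%, with a median total of 6037 a nucleus in I4 against 7398 in I8. These low shares set the background against which the 3 clusters stand. The class markers of the 3 differed: I1 and I7 had Pax2 at 275 and 400 CPM, while I8 had Mpped2 at 741 CPM but Pax2 at 8.37 CPM. The choline transporter Slc5a7 was at 144 CPM in I1 but at 19.9 in I7 and 10.4 in I8, and Chat, the acetylcholine-making enzyme, was at 190 CPM, 28.7 and 106 CPM.

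Among motor neurons, Piezo2 had a second tier in visceral clusters, where it varied widely between libraries. The means were 272 ± 321 CPM in V4 (n = 9), 219 ± 233 in V5 (n = 7), 210 ± 176 in V7 (n = 9), 98.9 ± 71.9 in V3 (n = 9) and 79.5 ± 52.3 in V2 (n = 9), and no step among these exceeded the spread. The SDs of V4 and V5 were larger than their means. In V5 a single library of 15 nuclei, Thoracic 1, had 719 CPM against 38.0 to 258 in the other 6. The skeletal clusters were lower, at 34.8 ± 11.7 in S3, 13.2 ± 11.6 in S2 and 11.8 ± 5.01 CPM in S1 (n = 9 each).

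**Figure D2:**
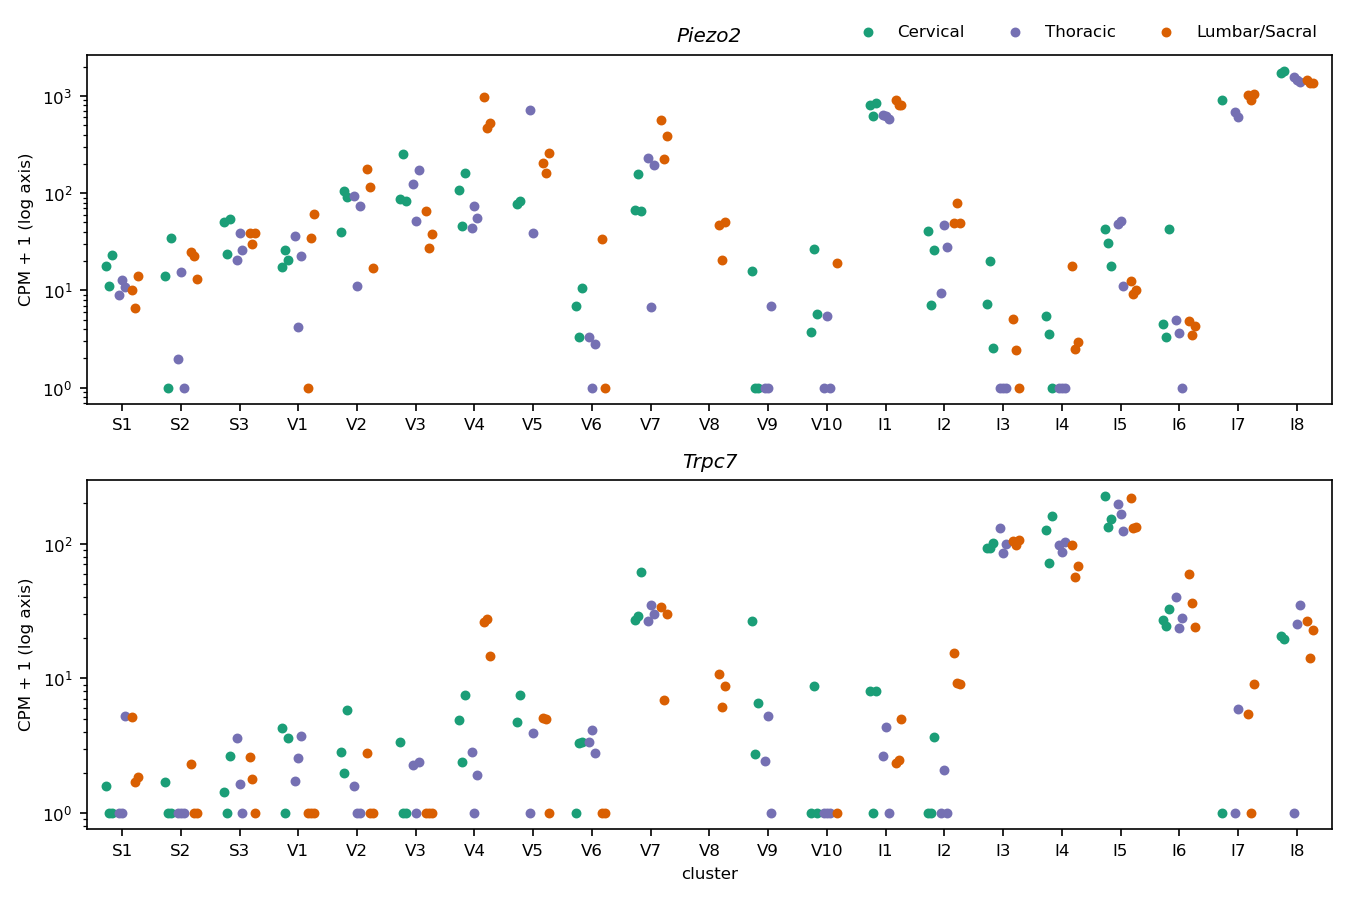
Piezo2 (top) and Trpc7 (bottom) in each library (points, coloured by labelled region) and cluster, as CPM + 1 on a log axis, for libraries with at least 10 nuclei of the cluster. Piezo2 points of I8 all lie between 1340 and 1820 CPM, those of V4 part by region, and Trpc7 points are highest in I3, I4 and I5.

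Piezo1 was sparse everywhere. Its highest cluster was I2, at 26.5 ± 6.89 CPM (n = 9) and in 17.2% of nuclei, with values from 14.4 in the library labelled Cervical 2 to 37.0 in Cervical 1. I3 followed at 8.995 ± 4.905 CPM (6.48% of nuclei), then I7 at 6.04 ± 11.8 (n = 6), where the library labelled Thoracic 2 had 29.4 CPM, Lumbar/Sacral 2 had 6.89 and the other 4 were at 0, and I4 at 5.99 ± 3.63. In V7 no value above 0 was found in 557 nuclei, which allows a share of up to 0.539%, and in V10 in 174 nuclei, which allows up to 1.72%; both limit the share of nuclei with a value above 0, not of nuclei that express the gene, and cover counting error only. The genes found most in vessel walls, summed over 5 endothelial markers, ran from 5.31 to 71.2 CPM in the I2 sums. They ran from 13.3 to 61.0 CPM in those of I5, where Piezo1 was at 0.113 CPM. With all libraries pooled, Tek alone made up 19.1 of 23.5 CPM of this sum in I2 and 21.5 of 29.1 in I5. Tek differed between the library sets, as given below, so these ranges partly follow the sets. The part of vessel cells in the Piezo1 values was not tested.

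Trpc7 was highest in 3 interneuron clusters. It stood at 163 ± 40.1 CPM in I5, 99.9 ± 12.8 in I3 and 95.3 ± 31.7 in I4 (n = 9 each), in 68.2%, 46.4% and 46.9% of nuclei. In I3 the 9 libraries lay between 83.7 and 129 CPM, and in I5 between 122 and 224. I6 (31.9 ± 11.5), V7 (30.2 ± 14.1) and I8 (19.7 ± 10.0 CPM, n = 8) came next, and the other 15 clusters were below 10 CPM. The 3 clusters highest for Trpc7 were not the 3 highest for Piezo2. In I1, I7 and I8 Trpc7 was at 2.89, 2.92 and 19.7 CPM, and in I3, I4 and I5 Piezo2 was at 3.61, 3.03 and 25.1 ± 17.6 CPM.

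Trpc4 was highest in I1, at 400 ± 66.5 CPM (n = 9) and in 85.4% of nuclei, with 307 to 477 CPM over the libraries, and the step to I7 exceeded the spread. I7 at 219 ± 55.5 (n = 6), V5 at 215 ± 97.7 (n = 7), V4 at 207 ± 65.1 (n = 9) and V8 at 206 ± 61.4 CPM (n = 3) did not differ beyond their spread. It was lowest in S1 (3.73 ± 2.93), I8 (4.90 ± 5.64) and S2 (6.06 ± 7.09 CPM). I1 and I7 therefore held both Piezo2 and Trpc4, whereas I8, highest for Piezo2, had little Trpc4.

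Trpc5, the closest relative of Trpc4, was spread over skeletal, visceral and interneuron clusters. V8, a cluster with 463 of its 467 nuclei in the lumbar/sacral libraries, was highest at 446, 476 and 368 CPM (430 ± 55.6, n = 3), and S1 followed at 306 ± 66.3 (n = 9), a step within the spread. V10 (262 ± 64.7), I4 (251 ± 50.9), I2 (251 ± 43.6), I1 (237 ± 32.9) and V5 (236 ± 50.5 CPM) did not differ from their neighbours beyond the spread. I7 (6.004 ± 12.5), I8 (10.9 ± 8.83), S3 (21.03 ± 8.75), V4 (27.6 ± 15.1) and V6 (28.9 ± 29.1 CPM) were the lowest. In I7 and V4, Trpc4 was high where Trpc5 was low, and S1 was the other way round. V8 had Fbn2 at 1207 CPM but Zeb2, the other visceral marker, at 12.3 CPM.

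Trpc1 was the most even of the 7, from 66.6 ± 11.9 CPM in I5 to 120 ± 27.5 in I3 (n = 9 each), and its 1 step beyond the spread was from V8 (74.1 ± 9.95 CPM, n = 3) down to I5. Trpc6 was highest in V7 at 67.8 ± 23.4 CPM (n = 9), then V10 at 49.2 ± 22.8 (n = 7) and V8 at 40.8 ± 40.2 CPM (n = 3, with 3.88, 34.9 and 83.6). No neighbours differed beyond their spread, but V10 and V8 shared only 1 library, so their step could not be judged.

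Trpc6 differed between the library sets in each class. In skeletal motor neurons it was at 2.34 to 2.89 CPM in the 4 libraries of set A and at 13.0 to 25.9 in the 5 of set B. In visceral motor neurons the ranges were 10.3 to 15.9 and 23.0 to 55.2 CPM, and in interneurons 4.28 to 6.63 and 12.05 to 21.7 CPM. The sets did not overlap in any of the 3 classes. In interneurons the sets also did not overlap for Trpc4 (154 to 178 CPM in A, 98.3 to 134 in B) or Trpc7 (55.9 to 63.0 in A, 37.2 to 49.7 in B), nor in skeletal motor neurons for Trpc1 (89.7 to 98.5 in A, 99.3 to 127 in B). The division was not limited to channel genes. Over the nuclei of a library, the microglial gene P2ry12 was at 3.45 to 7.51 CPM in set A and 22.9 to 78.5 in set B. Cx3cr1, also microglial, was at 2.57 to 3.54 and 12.2 to 18.8 CPM, and the endothelial gene Tek at 2.197 to 4.43 and 13.97 to 30.5. Endothelial Pecam1 and oligodendrocyte Mbp overlapped between the sets. The sets were found from these libraries, on a component over 10107 genes, so many genes can be expected to part between them. The share of all genes without overlap is not given here, so nothing is read about the members from this. Each region has libraries of both sets, and what the sets stand for was not tested.

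**Figure D3:**
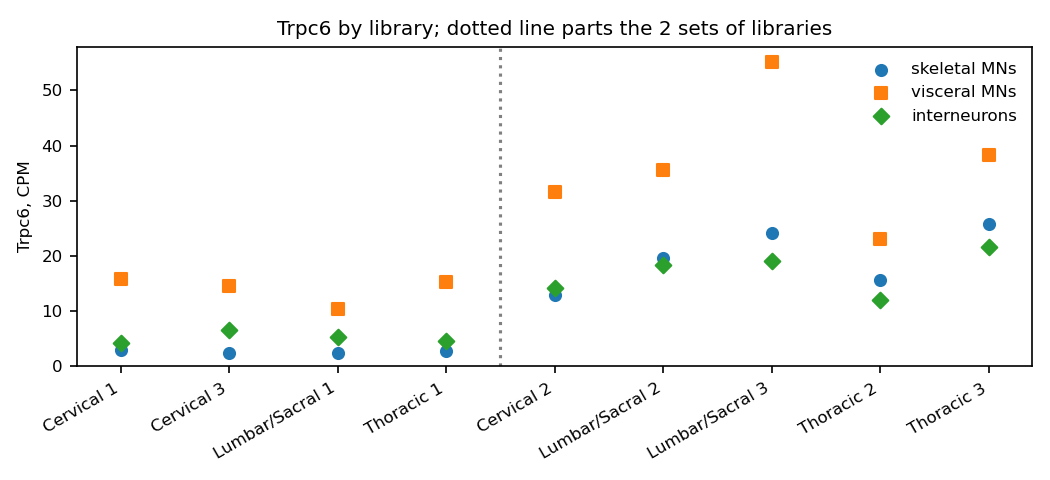
Trpc6 in CPM (vertical axis, from 0) for each library (horizontal axis) in each of the 3 classes (symbols); the dotted line parts set A (left, 4 libraries) from set B (right, 5 libraries). Each class is lower in every library left of the line than in any right of it, 2.34 to 2.89 against 13.0 to 25.9 CPM in skeletal motor neurons.

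For each gene the 3 genes with the most similar pattern over the 21 clusters were found by Pearson's r of mean log2(CPM + 5) among 14465 genes. They were Neurod6 (r = 0.937), Mmp2 (0.900) and D930048N14Rik (0.814) for Piezo1, and Dhodh (0.778), Npffr1 (0.776) and Snapc4 (0.768) for Piezo2. For Trpc7 they were Sycp3 (0.877), Npsr1 (0.865) and Cabcoco1 (0.851), for Trpc4 Camk2a (0.831), Dnajc13 (0.821) and Lman2l (0.819), for Trpc1 Plekhm2 (0.754), Add1 (0.723) and Nipal3 (0.710), and for Trpc6 Pex3 (0.823), Tspan2os (0.790) and Rab26os (0.759). For Trpc5 they were its 2 neighbours on the X chromosome, Rtl4 (r = 0.953) and Trpc5os (0.852), followed by AY036118 (0.715). Piezo1 reached 10 CPM in I2 only, so its r values rest largely on that cluster. Tspan2os, Rab26os and Trpc5os were low throughout, with highest cluster means of 2.96, 3.39 and 3.42 on this scale, whose floor is 2.32. Dhodh ran only from 2.91 to 3.86. The 21 points share libraries and depth, and these values describe likeness only.

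The likeness of Rtl4 to Trpc5 covered the low clusters as well as the high ones. Rtl4 was at 948 CPM in S1, 833 in S2 and 654 in V8, and at 30.1 in I7 and 14.5 CPM in I8, which are also the lowest clusters for Trpc5. Trpc5os overlaps Trpc5, and whether the counting used strand is not given in the sources used here, so their values may share reads.

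How often 2 of the genes were found in the same nucleus was set against the product of their shares, in each library with at least 20 nuclei of a cluster. Of 147 combinations of a pair and a cluster, the mean difference exceeded its SD over libraries in 12, with 9 above and 3 below the product. After thinning 7 exceeded it, and 5 did so both ways. In I7, Trpc1 and Trpc4 were found together in 38.8% of nuclei against a product of 33.1% (a difference of 5.73 ± 1.76 points, n = 5). In I2, Piezo2 and Trpc5 were found together in 3.92% against 6.95% (−3.03 ± 1.98 points, n = 9). Nuclei share libraries and depth, and no doublet caller was run here, so these are descriptions.

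Region was compared as lumbar/sacral (3 libraries) against rostral, that is the average of the cervical and thoracic means as labelled (6 libraries). The fits used limma on log2(CPM + 5) of the summed values, with Benjamini-Hochberg adjustment over all genes tested. Of 16 tests of a member in a class, 1 was called at an adjusted p under 0.05, Trpc5 in visceral motor neurons. In the same class 4.27% of 10031 genes were called, against 0.01% of 9999 in skeletal motor neurons and 0.051% of 9805 in interneurons. Of the members tested, 1 of 5 was called in visceral motor neurons, 0 of 5 in skeletal motor neurons and 0 of 6 in interneurons, and the last 2 classes also had 0 members at an unadjusted p under 0.05 (limma). The members' median log2 fold change was 0.32 in visceral, 0.28 in skeletal and −0.0079 in interneuron sums, beside 0.06, 0.12 and 0.01 over all genes. Piezo1 did not pass the filter of 10 CPM in 3 sums in any class, and Trpc7 passed it in interneurons.

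In visceral motor neurons, Trpc5 was at 287, 264 and 223 CPM in the lumbar/sacral libraries and between 80.8 and 171 in the rostral ones. The groups did not overlap, and the log2 fold change was 1.09 (SE 0.19, adjusted p = 0.0123, limma). The call was lost without Lumbar/Sacral 1 (adjusted p = 0.0831) or Lumbar/Sacral 2 (0.0767). V8, found almost wholly in lumbar/sacral tissue, made up 33.4%, 25.8% and 32.4% of their visceral nuclei and at most 0.279% elsewhere. Without its nuclei Trpc5 was at 207, 192 and 154 CPM against 80.8 to 171 and was no longer called (log2 fold change 0.62, SE 0.19, adjusted p = 0.245, limma). The call for the class was thus present only with the nuclei of V8 included.

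Piezo2 went the other way when V8 was left out. With V8 it was at 204, 123 and 136 CPM in the lumbar/sacral visceral sums against 26.3 to 89.7 in the rostral ones, without overlap but short of the call (log2 fold change 1.29, SE 0.33, adjusted p = 0.0743, limma). With pool as a term in the fit, the replicate block, the adjusted p was 0.0466 (limma), with the library set as a term 0.0263, and without both libraries whose Hox levels were crossed 0.0163. It also passed without Thoracic 1 (0.03998) or the library labelled Thoracic 2 (0.0252), and over all alternatives the adjusted p ran up to 0.300, without Lumbar/Sacral 1. Without V8, Piezo2 was at 284, 158 and 177 CPM against 26.3 to 89.7, and it was called (log2 fold change 1.69, SE 0.34, adjusted p = 0.0466, limma), where 1.72% of 10047 genes were. V8 itself had Piezo2 at 38.2 ± 16.4 CPM (n = 3).

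The regional difference of Trpc5 in visceral motor neurons exceeded that in skeletal motor neurons by 0.816 log2 units and that in interneurons by 1.15 log2 units (exact two-sided permutation test over 9 libraries, p = 0.0238 each, the smallest this design allows, and 0.0357 after adjustment over 6 such comparisons, which were chosen after the values were seen). Same-numbered libraries come from the same mice, and when libraries were exchanged within their pool only (27 arrangements, smallest possible p = 0.037) the exact permutation p was 0.0741 and 0.037, or 0.111 and 0.0741 after adjustment, so neither passed. Without V8 the first fell to 0.34 (exact permutation p = 0.381) and the second to 0.67 (exact permutation p = 0.0238). In skeletal motor neurons the fold change of Trpc5 was 0.28 and in interneurons −0.06 on the log2 scale. For Piezo2 the excess over skeletal motor neurons was 1.07 (exact permutation p = 0.143) and over interneurons 0.75 (exact permutation p = 0.286).

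The other 14 class tests gave log2 fold changes from −0.29 to 0.54, with the lowest adjusted p at 0.419 (limma). Cervical and thoracic libraries, as labelled, gave 0 calls among 16 member tests and 0 calls (0%) over all genes in each of the 3 classes, with 607, 160 and 189 genes at an unadjusted p under 0.05 in skeletal, visceral and interneuron sums (limma). The members ranged from −0.74 to 0.54, and 2 of them, Trpc5 in visceral motor neurons (0.54) and in interneurons (0.24), had an unadjusted p under 0.05. Since 2 of these 6 libraries go against their labels, this comparison says little about either region.

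**Figure D4:**
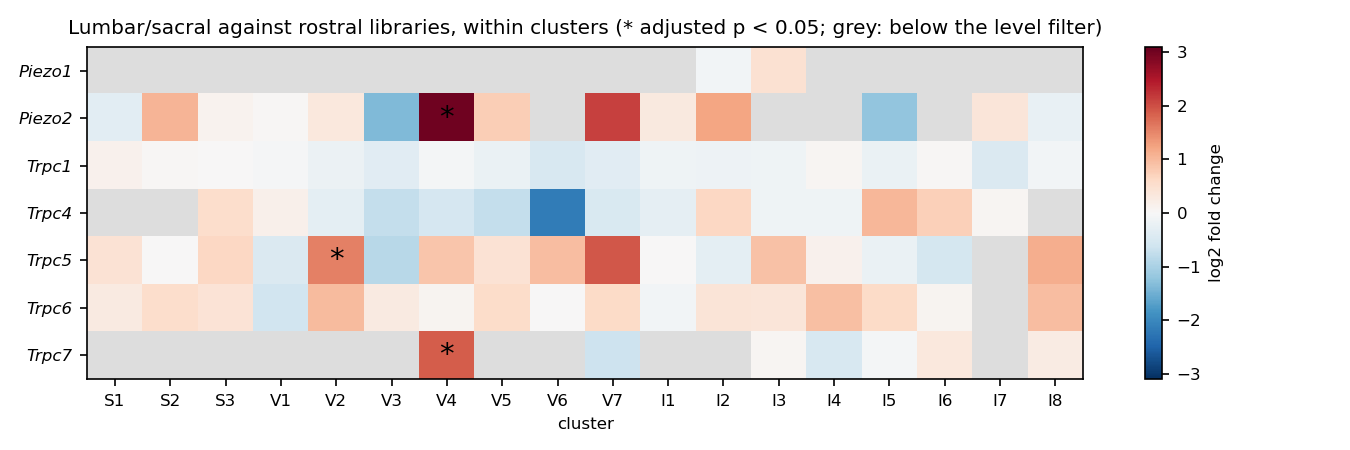
Log2 fold change of lumbar/sacral against rostral libraries (colour, red higher in lumbar/sacral) for the 7 genes (rows) within the 18 clusters that could be fitted (columns); grey marks genes below the level filter and * an adjusted p under 0.05. Trpc7 in V4 passed the filter only through its lumbar/sacral sums. The marks stand at Piezo2 and Trpc7 in V4 and at Trpc5 in V2, with log2 fold changes of 3.02, 1.87 and 1.57.

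Within clusters the comparison could be fitted in 18 of 21, all but V8, V9 and V10. Of 126 combinations of a member and a cluster, 90 passed the filter and 3 were called (3.33%), beside 1.08% of 178886 combinations of any gene and a cluster. Of the 3, Trpc7 in V4 passed the filter only through the 3 lumbar/sacral sums and so had to be higher there, which leaves Piezo2 in V4 and Trpc5 in V2, and nothing is read from the count or its direction. At an unadjusted p under 0.05 (limma) the members' share was 24.4% and that of all genes 7.37%. The members' share counts Trpc7 in V4 and repeated tests of the same few genes in clusters of the same libraries, so nothing is read from it. Each of the 3 calls was in a visceral cluster, and V4 and V2 had 2.74% and 3.07% of all their genes called.

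Piezo2 in V4 was the largest of the 3. The lumbar/sacral libraries had 973, 463 and 531 CPM. The rostral ones had 108 in Cervical 1, 45.1 in the library labelled Cervical 2, 160 in Cervical 3, 42.7 in Thoracic 1, 73.4 in the library labelled Thoracic 2 and 54.3 in Thoracic 3. The lowest lumbar/sacral library was well above the highest rostral one, and the log2 fold change was 3.02 (SE 0.34, adjusted p = 0.000464, limma). It stayed between 2.70 and 3.23 when each library was left out in turn.

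The same difference was seen in the share of nuclei and in the level of those nuclei. Piezo2 was found in 74.6%, 70.4% and 61.5% of V4 nuclei of the lumbar/sacral libraries and in 14.5% to 38.6% of the rostral ones, and after thinning in 75.0%, 64.8% and 56.8% against 30% at most. Nuclei with any Piezo2 held 6.18, 4.58 and 4.83 corrected counts on average against 1.77 to 5.44, so these ranges overlapped at Cervical 3. The median total of a V4 nucleus was 5458 in lumbar/sacral and 9064 in rostral libraries, so the higher share came at lower depth. Within set A, where Lumbar/Sacral 1 was the only lumbar/sacral library, the difference was 3.35 log2 units. Within set B, with Lumbar/Sacral 2 and Lumbar/Sacral 3, it was 3.02. Markers of sensory neurons, the known site of Piezo2, summed to a median of 0 CPM over the V4 libraries (4 of 6 markers present, range 0 to 26.8).

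V4 nuclei differed by region in their own markers too. Zeb2, a visceral motor neuron marker, was lower in lumbar/sacral V4 (log2 fold change −2.41), Isl1, a motor neuron homeobox gene, was higher (1.19) and Slc5a7 was lower (−0.84), all called by limma. Whether the lumbar/sacral and rostral nuclei grouped as V4 are the same kind of neuron was not tested.

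In the other visceral clusters tested, Piezo2 was not called. In V3 the lumbar/sacral libraries had 63.8, 26.4 and 37.3 CPM against 51.2 to 250 in the rostral ones (log2 fold change −1.37, adjusted p = 0.193, limma), and without both libraries with crossed Hox levels the adjusted p was 0.0224. The regional difference in V4 exceeded that in V3 by 4.40 log2 units, with V4 minus V3 at 3.66 to 3.90 in lumbar/sacral and −2.35 to 0.93 in rostral libraries (exact permutation p = 0.0238, adjusted 0.0357; within pools 0.037, adjusted 0.0741). In V7 the values were 569, 223 and 386 CPM against 5.70 to 231, which overlapped (2.11, unadjusted p = 0.0132, adjusted p = 0.388, limma). In V5 they were 203, 159 and 258 CPM against 77.1, 82.4, 38.0 and, in the 15 nuclei of Thoracic 1, 719 (0.77, adjusted p = 0.706, limma). By Hox level, the rostral libraries with more Hoxa9 had V7 values of 231, 192 and, labelled Cervical 2, 156 CPM. Those with less had 66.7, 64.7 and, labelled Thoracic 2, 5.70 CPM (1 summed count in 21 nuclei). In V3 the libraries with more Hoxa9 had 123, 170 and 250 CPM, against 86.3, 82.1 and 51.2 with less. V4 parted the other way, at 42.7, 54.3 and 45.1 CPM against 108, 160 and 73.4. In V2 these groups overlapped, and the split was not tested. In V2 the lumbar/sacral values were 175, 114 and 16.0 against 10.1 to 105 CPM in the rostral libraries (0.32, adjusted p = 0.952, limma).

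**Figure D5:**
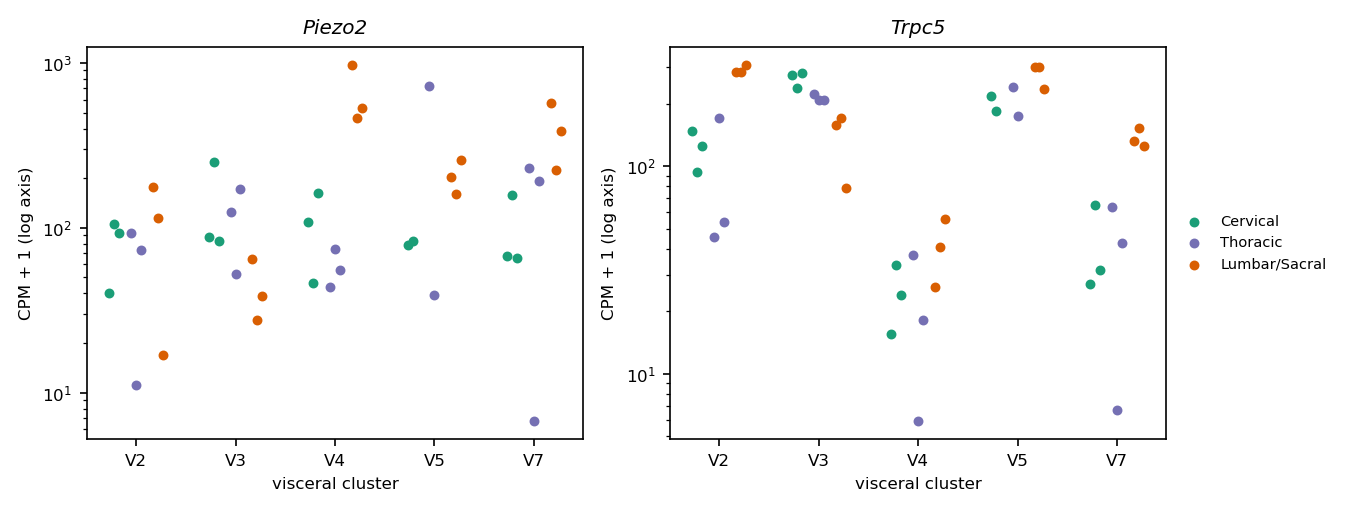
Piezo2 (left) and Trpc5 (right) in 5 visceral clusters, 1 point a library, coloured by labelled region, as CPM + 1 on a log axis. Piezo2 of the 3 lumbar/sacral libraries (463 to 973 CPM) lies above all rostral ones in V4 and low in V3, and Trpc5 of the lumbar/sacral libraries (283 to 308 CPM) lies above all rostral ones in V2.

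In the 3 clusters that Piezo2 marks, no regional difference was called. The log2 fold changes were 0.31 in I1, 0.38 in I7 and −0.22 in I8 (adjusted p = 0.99986, 0.879 and 0.924, limma), and 1 of the 3, in I1, had an unadjusted p under 0.05.

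Trpc5 was called in V2. It was at 283, 283 and 308 CPM in the lumbar/sacral libraries and between 44.9 and 171 in the rostral ones, without overlap (log2 fold change 1.57, SE 0.33, adjusted p = 0.0205, limma). The call was lost when Cervical 3 (adjusted p = 0.0501) or any 1 lumbar/sacral library (0.0881, 0.107 and 0.132) was left out. In V3 the direction was the other way, with 157, 171 and 78.0 CPM against 208 to 280 and no overlap, but short of the call (−0.86, adjusted p = 0.101, limma; with the replicate block 0.0410 and with the library set term 0.0395). The regional difference in V2 exceeded that in V3 by 2.43 log2 units (exact permutation p = 0.0238, adjusted 0.0357; within pools 0.037, adjusted 0.0741).

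In V7, Trpc5 was at 131, 153 and 124 CPM against 5.70 to 64.1, without overlap and not called (1.92, adjusted p = 0.218, limma). In I3 it was at 183, 134 and 178 against 55.3 to 122 CPM, again without overlap and not called (0.90, adjusted p = 0.999, limma), but called with the replicate block (0.0399) and the library set term (0.0046). Over the 17 clusters tested, Trpc5 had an unadjusted p under 0.05 in 6 that were higher and 2 that were lower in lumbar/sacral tissue.

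Trpc7 was called in V4 at levels far below its interneuron ones. It was at 25.2, 26.6 and 13.7 CPM in the lumbar/sacral libraries and at 0 to 6.55 in the rostral ones (log2 fold change 1.87, SE 0.39, adjusted p = 0.0226, limma). Only the 3 lumbar/sacral sums reached 10 CPM, so the gene was tested because it was high there. These values rest on summed corrected counts of 21 in 160 lumbar/sacral nuclei and 10 in 502 rostral ones. The call was lost with a pseudocount of 1 (adjusted p = 0.103), without Cervical 1 (0.0562), without the library labelled Thoracic 2 (0.0529) and without both libraries with crossed Hox levels (0.0710), and without any 1 lumbar/sacral library Trpc7 fell below the filter. In the interneuron clusters that it marks, the log2 fold changes were 0.06 in I3, −0.50 in I4 and −0.06 in I5, and none was called.

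The remaining members gave no call within a cluster. Trpc1 was tested in 18 clusters, from −0.51 to 0.13 on the log2 scale, with 0 at an unadjusted p under 0.05. Trpc4 was tested in 15, with its lowest value in V6 (−2.16, adjusted p = 0.110, limma), Trpc6 in 17 from −0.59 to 0.98, and Piezo1 in 2, at −0.07 in I2 and 0.47 in I3.

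Rtl4, the divergent neighbour of Trpc5, was called in the same class and the same cluster. In visceral motor neurons it was at 486 ± 83.8 CPM in lumbar/sacral (n = 3) and 278 ± 71.8 in rostral libraries (n = 6; log2 fold change 0.82, adjusted p = 0.0355, limma), and in V2 at 561 ± 54.7 against 272 ± 75.7 CPM (1.08, adjusted p = 0.0094). In V3 its fold change was −0.63 (adjusted p = 0.126), in skeletal motor neurons 0.26 and in interneurons −0.06, none of them called. Without V8 the visceral value was 0.59 (adjusted p = 0.201, limma), which was no longer called.

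Other genes of the same pathways were read from lists, beside 4.27% of all genes called in visceral motor neurons. Of the other TRP channels, 10 of 23 were tested in visceral motor neurons and 1 rose in lumbar/sacral tissue, Trpm3, a heat- and steroid-gated channel, at 191 ± 69.9 against 31.0 ± 8.83 CPM (log2 fold change 2.41; 0.90 and adjusted p = 0.0534 without V8, limma). Of other mechanosensitive channels, 1 of 6 rose, Kcnk2, the stretch-activated potassium channel TREK-1, at 164 ± 45.0 against 39.3 ± 14.7 CPM (1.95, adjusted p = 0.0046; 2.17 and adjusted p = 0.0048 without V8, limma). Kcnk2 was also called higher within V2 (2.82), V3 (2.32), V4 (2.91) and V5 (2.45), so it did not share the opposite directions of Piezo2 in V4 and V3. Of Piezo channel partners, 0 of 3 tested were called, and 0 had an unadjusted p under 0.05 (limma).

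In the Gq and phospholipase C pathway, which opens TRPC channels, 2 of 13 genes rose in lumbar/sacral visceral motor neurons, among them Chrm3, the muscarinic M3 receptor (515 ± 140 against 91.8 ± 28.9 CPM, log2 fold change 2.46). The 3 that fell were Grm5, a glutamate receptor (−1.23), Plcb4, a phospholipase C (−1.03), and Dgka, a kinase that removes diacylglycerol (−0.70; named after its value was seen). Of 10 store and calcium release genes, Itpr1, the IP3 receptor, rose (1.52) and Homer2, a scaffold, fell (−0.51). Without V8, Chrm3 (adjusted p = 0.0054), Grm5 (0.0424) and Itpr1 (0.0084) were still called by limma and Plcb4 (0.175), Dgka (0.131) and Homer2 (0.426) were not. The lists' median log2 fold changes were −0.01 for other TRP channels, 0.19 for mechanosensitive channels, 0.08 for Piezo partners, −0.19 for the Gq pathway and 0.21 for store genes, beside 0.06 over all genes.

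Within the 2 clusters with calls among the members, the lists differed. In V4, Kcnk2 rose while Kcnk10 (TREK-2, −0.85) and Ryr3, a ryanodine receptor (−2.88), fell. In V2, Kcnk2 (2.82), Itpr1 (2.62) and Ryr2 (1.53) rose, as did Chrm3 (5.88, a value that depends on the pseudocount because 1 rostral library is at 0), and Grm5 (−1.29) and Dgka (−1.82) fell, all called by limma. No gene of these lists was called in skeletal motor neurons or interneurons as classes, whereas Asic2, an acid-sensing channel subunit, rose within I2 (1.78) and I6 (1.64) and Trpm3 within I8 (1.96).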

How the data were processed

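Spinal cords were split into 3 regions, and GFP+ nuclei of 4 mice a pool were sequenced on the 10x platform, giving 9 libraries. The submitters' processing notes name Cell Ranger 3.1.0, mm10 and Seurat, with which the authors removed outlying nuclei, ran SCTransform and clustered. The deposited values are whole-number corrected counts from the authors' SCTransform model, that is a score and not molecules, so no count model was fitted, and differences in depth between nuclei are partly evened out.

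For every library and class or cluster with 10 or more nuclei, values were added up, scaled to CPM and tested with limma 3.58.1 (R 4.3.3; lmFit and eBayes with trend) on log2(CPM + 5), keeping genes that reached 10 CPM in 3 or more sums, adjusted by Benjamini-Hochberg over all of them, with calls at an adjusted p under 0.05. Fold changes on this scale understate those of low genes. Shares of nuclei were recomputed after thinning to 4600. Python 3.11.15, numpy 2.4.6, pandas 2.3.3 and scipy 1.17.1 did the rest, no doublet caller was run, and how the authors treated doublets is not given in the sources used here. The fit was tested on simulated data. Same-numbered libraries come from the same mice. Their deviations from the region means correlated with r from −0.22 to 0.922 in 27 pairs, of which 21 exceeded 0.1 and 6 were below 0.

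The 7 genes, the other lists and the tests were chosen with earlier results of these data known. Named genes were all 7, the 3 most similar genes of each, and up to 4 called genes a list and comparison, largest change first. The alternatives tried were another scaling, a pseudocount of 1, no filter, the replicate block and leaving out each library. The library set term, both crossed libraries left out, V8 left out, and libraries exchanged within pools only in the permutation tests were added after seeing the data. The deposited nuclei of the non-cholinergic clusters were not used here. Some genes of the lists are not reported here.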

Additional observations from a re-analysis of the deposited data

Results flagged for a closer look

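The regional difference between lumbar/sacral and rostral libraries differed between groups of nuclei in 4 of 6 comparisons when libraries were exchanged freely, which were chosen after the values were seen (exact two-sided permutation test over 9 libraries, p = 0.0238 each, the smallest the design allows, 0.0357 after adjustment over the 6). For Trpc5 it was 0.816 log2 units larger in visceral than in skeletal motor neurons and 1.15 larger in visceral motor neurons than in interneurons. For Piezo2 it was 4.399 larger in V4 than in V3, and for Trpc5 2.425 larger in V2 than in V3. With libraries exchanged only within pools of the same mice (27 arrangements), the exact permutation p was 0.0741 for the first and 0.037, the smallest possible, for the other 3, or 0.111 and 0.0741 after adjustment, so none passed. No sample stood apart from the other rostral libraries in the 31 groups of 6 that were checked. V5 had 4 rostral libraries with enough nuclei and so was not covered by this check. There Thoracic 1 had Piezo2 at 719 CPM against 77.1, 82.4 and 38.0 in the other rostral libraries.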

How the results depend on the processing

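Members called in visceral motor neurons numbered 1 as reported, 2 each with the replicate block, the library set term and both libraries with crossed Hox levels left out, and 0 to 2 with each library left out. Within clusters they numbered 3 as reported, 5 with the replicate block, 6 with the library set term and 1 to 4 with each library left out. Combinations of 2 genes beyond the spread numbered 12 as reported and 7 after thinning. Of the clusters that made up each gene's highest 3, 21 over the 7 genes, 18 were the same unscaled and 18 by thinned share. Calls over all genes moved by more than 1.5 times as follows. In skeletal motor neurons 1 became 0 with a pseudocount of 1, 12 without a filter, 4 with the replicate block, 8 with the set term and 0 to 1 with a library left out. In visceral motor neurons 428 became 737 with the block, 833 with the set term, 173 without V8 and 160 to 471 with a library left out. In interneurons 5 became 44, 83 and, with both crossed libraries left out, 13, and 1 to 9 with a library left out. Between cervical and thoracic skeletal motor neurons 0 became 1 with both crossed libraries left out. Within clusters 1934 became 3480 with the set term and 491 to 3202 with a library left out. For 29 member tests, 434 alternative values held 397 with the same direction and side of the threshold, 11 weaker, 11 stronger and 15 reversed, the last all from log2 fold changes of at most 0.32 in size. Reversed were Trpc1 in skeletal motor neurons (−0.080 with another scaling, −0.042 to 0.12 with a library left out), Trpc4 in visceral motor neurons (−0.00074 with another scaling, −0.27 without V8, −0.17 to 0.26 with a library left out), Trpc6 in visceral motor neurons (−0.10 to 0.89 with a library left out), and in interneurons Trpc1 (0.046 without both crossed libraries, −0.12 to 0.022 with a library left out) and Trpc4 (−0.079 and −0.089 to 0.13). The cause was not tested. Low values such as Piezo1 outside I2 and Trpc7 in V4 rest on few counts, and depth limits what can be said of them.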
